A study of Mus musculus with 15 samples.

Results

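The IL-6 family genes described here were 4 ligands, *Il6*, *Lif*, *Osm* and *Clcf1*, and 3 receptor chains, *Il6ra*, *Il6st* and *Osmr*. They were taken by name and make up 7 of the 51763 genes in the count table, and all 7 were among the 16919 genes that passed the filter on low counts. RNA was sequenced from 15 samples of mouse bone marrow-derived macrophages (BMDMs), 3 for each of 5 conditions. The marrow came from wild-type female C57BL/6NTac mice aged 8 to 10 weeks. The cells were grown with M-CSF, for 10 days by the labels and for a shorter time by the paper's methods. They were treated for 24 h with PBS, with fully reduced HMGB1 (frHMGB1, 5 µg/mL), with disulfide HMGB1 (dsHMGB1, 5 µg/mL), with LPS (1 µg/mL) or with LPS plus IFNγ (LPS/IFNγ, IFNγ at 20 ng/mL), the classical M1 stimulus. The submitters give the LPS dose beside IFNγ as 1 µg/mL in one place and 100 ng/mL in another, so LPS/IFNγ and LPS may differ in LPS dose as well as in IFNγ. HMGB1 is a nuclear protein that signals when released from cells, and the frHMGB1 and dsHMGB1 preparations came from different sources. Cells grown from 5 mice were combined before they were plated. The libraries of a condition are thus technical replicates of that combined culture, and errors and p-values cover the spread between cultures and libraries, not between mice.

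IL-6 family cytokines signal through receptor complexes that contain gp130, the product of *Il6st*. IL-6 first binds its own receptor chain (*Il6ra*), either on the membrane or in a soluble form, LIF acts through gp130 with the LIF receptor (*Lifr*), and oncostatin M acts through gp130 with the chain encoded by *Osmr*. JAK kinases bound to these chains phosphorylate STAT3, and SOCS3 shuts the signal off. Macrophages are a well known source of IL-6 after Toll-like receptor stimulation, and IL-6 drives the acute phase response of the liver.

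Libraries held between 40934540 and 80925478 counts. Macrophage markers were high in every library (all 8 listed genes tested, summed level 13520 to 27281 CPM, counts scaled to library size). The T cell genes *Cd3e*, *Cd3d* and *Cd3g* had 0 counts and *Trac* had 4 over all libraries. Of the neutrophil genes, *Ly6g* and *Mpo* had 0 counts, *Elane* 15, *Ngp* 2 and *Ltf* 29. *Camp*, the 1 neutrophil gene tested, had 174 counts. It was called higher than in PBS after dsHMGB1 (log2 fold change 4.03, adjusted p = 0.00508, edgeR) and LPS (3.07, adjusted p = 0.0244). Fibroblast genes, led by *Col1a1* and *Col1a2*, were present in all conditions (7 of 8 tested, *Lum* near 0). Their summed level was 122 to 288 CPM in PBS, 250 to 252 CPM with frHMGB1, 216 to 268 CPM with dsHMGB1, 232 to 241 CPM with LPS and 229 to 233 CPM with LPS/IFNγ. Of the 7 tested, 2 were called higher than in PBS after dsHMGB1 and 5 after LPS and after LPS/IFNγ, with 0 lower and 0 called after frHMGB1. Of these genes *Pdgfrb* was 7.37-, 7.25- and 2.84-fold higher after dsHMGB1, LPS and LPS/IFNγ and *Dcn* 2.45-, 3.47- and 3.77-fold higher. Endothelial markers summed to 90.3 to 180 CPM over all libraries and were led by *Kdr* and *Vwf*, with *Tek* at 12 counts in all. *Kdr* was 4.24-, 4.66- and 7.38-fold higher than in PBS after dsHMGB1, LPS and LPS/IFNγ, and *Vwf* was 1.77-, 1.95- and 2.03-fold lower. The summed macrophage markers were lowest with LPS/IFNγ (13520 to 13865 CPM). That sum was led by *Lyz2*, with a mean of 9307.5 CPM there and 18539 CPM in PBS. By normalized counts *Lyz2* was 1.25-fold lower than in PBS. Of the 8 macrophage genes, 4 were called higher and 2 lower than in PBS after LPS/IFNγ, against 29% and 31.2% of all tested genes. Dendritic cell markers summed to at least 13.8 CPM with LPS/IFNγ and to at most 8.62 CPM elsewhere. The dendritic cell genes did not move together. *Zbtb46* was called higher than in PBS after dsHMGB1, LPS and LPS/IFNγ (log2 fold change 2.27, 3.68 and 5.08). *Xcr1* was called higher after LPS and LPS/IFNγ (2.35 and 2.59) and lower after frHMGB1 (−1.45). In contrast, *Clec9a* was called lower after dsHMGB1, LPS and LPS/IFNγ (−3.57, −3.28 and −0.81). The part of other cell types in the results was not tested. In bulk RNA, fewer cells making a transcript and less transcript per cell cannot be told apart.

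PBS replicate 3 stood apart from the other PBS libraries, and the difference followed transcript length. Its Pearson correlation with them across genes was 0.939 and 0.934, against 0.987 to 0.993 for every other pair of replicates. Protein-coding genes with under 2 kb of exon were 2.29-fold higher in this library than in the other PBS libraries (median of 1163 genes), whereas genes with 5 kb or more were at 0.633 of their level (4585 genes). The receptor genes are long, with exon lengths of 8.642 kb for *Il6ra*, 11.099 kb for *Il6st* and 12.113 kb for *Osmr*, and lay at 0.636, 0.363 and 0.515 of the level in the other PBS libraries. The ligands *Osm* (2.272 kb), *Clcf1* (3.806 kb) and *Lif* (4.35 kb) lay at 0.786, 0.819 and 0.726. Values without PBS replicate 3 are therefore given for many results below, and a result given without them may also change.

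**Figure D1:**
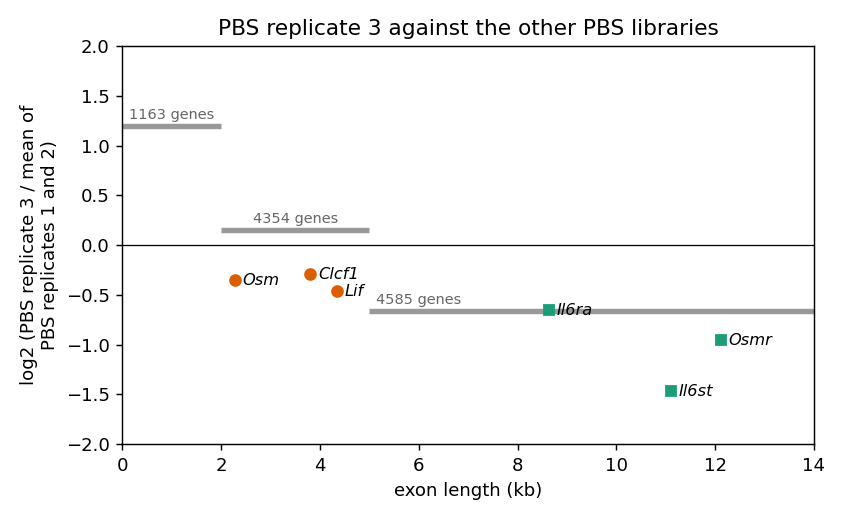
Log2 ratio of the normalized count in PBS replicate 3 to the mean of PBS replicates 1 and 2, against exon length in kb, for 6 of the genes (circles, ligands, and squares, receptors) with *Il6* left out for its 10 counts in PBS. Grey bars are medians of protein-coding genes under 2 kb, of 2 to 5 kb and of 5 kb or more, and *Il6st* and *Osmr* lie below the median of the long genes.

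dsHMGB1, LPS and LPS/IFNγ each moved the family the same way against PBS, with all 4 ligands and *Osmr* higher and *Il6ra* lower, while after frHMGB1 *Osmr* was the single gene called with all libraries. At an adjusted p under 0.05 (edgeR's quasi-likelihood test), 5 of the 7 genes were higher and 2 lower after dsHMGB1, where 23.3% of all tested genes were higher and 24.2% lower. After LPS the counts were 5 higher and 2 lower, against 26.7% and 36.2% of all tested genes. After LPS/IFNγ, 5 were higher and 1 was lower, against 29% and 31.2% of all tested genes. After frHMGB1, 1 gene was higher and 0 lower, against 1.31% and 5.69% of all tested genes (2745 genes had an unadjusted p under 0.05). For frHMGB1, DESeq2 also called *Osmr* and no other gene of the family, whereas 0 genes were called with these libraries and PBS fitted alone and 2, *Osmr* and *Il6st*, without PBS replicate 3. Without that library 17339 genes were tested, and 5 genes of the family were higher and 2 lower after each of dsHMGB1, LPS and LPS/IFNγ. The shares of all tested genes were then 29.8% higher and 29% lower after dsHMGB1, 32.9% and 38.3% after LPS, 33.3% and 34.4% after LPS/IFNγ and 8.41% and 9.09% after frHMGB1. The median log2 fold change of the 7 genes was 2.49 after dsHMGB1, 3.50 after LPS and 3.85 after LPS/IFNγ, beside medians of −0.10, −0.21 and −0.13 over all tested genes. These comparisons share the PBS libraries.

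**Figure D2:**
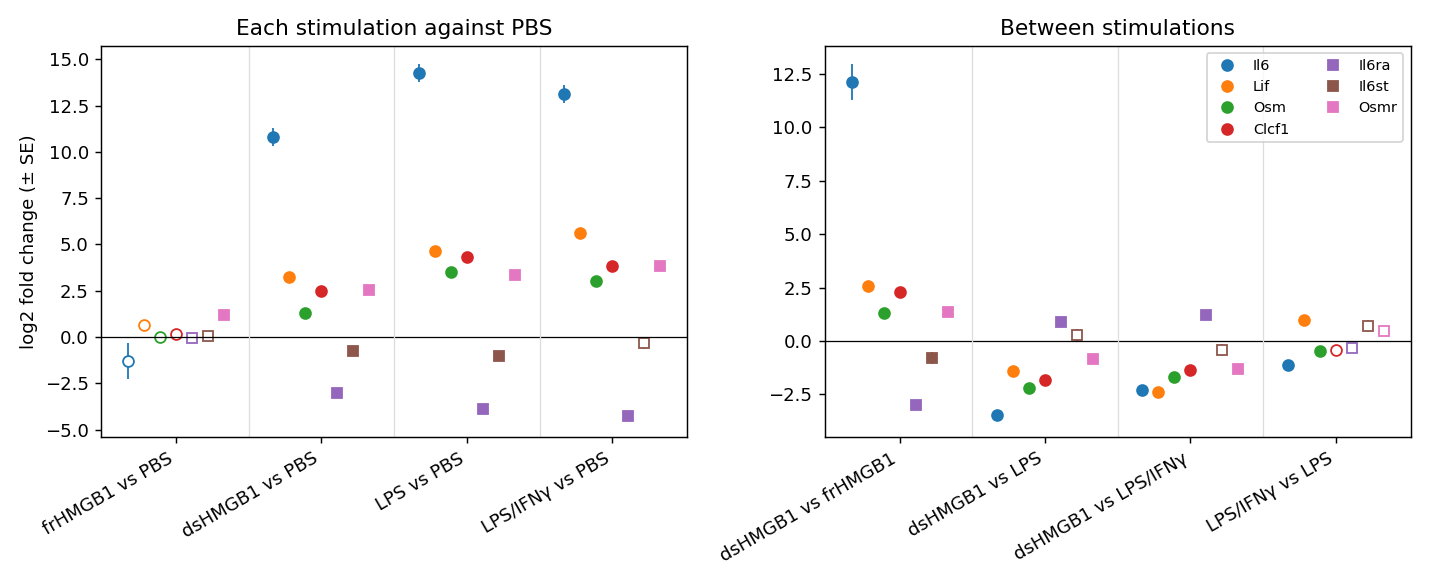
Log2 fold change (DESeq2) with its standard error for the 7 genes, with circles for ligands and squares for receptors, against PBS on the left and between stimulations on the right. Filled symbols passed an adjusted p under 0.05 (edgeR). *Il6* has the largest change in each column where it passed except dsHMGB1 vs LPS/IFNγ, where *Lif* at −2.38 lies beside *Il6* at −2.30.

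*Il6*, the founding ligand, lies at chr5:30013114-30019981 on the plus strand (GRCm38, ENSMUSG00000025746). The exons of all its annotated transcripts merge into 4 stretches. The 250 bases before the RefSeq start base of *Il6* and of *Lif* are shown because both genes rose in these cells and their upstream sequences hold different matches to the motifs of inflammatory transcription factors. Capitals mark matches on either strand to NF-κB (GGANTTTCC), C/EBP (TTNNGCAA) or AP-1 (TGANTCA), in RefSeq sequence of GRCm38.p6, both genes on the plus strand, for chr5:30012864-30013113 and chr11:4257318-4257567. The gene positions given here are from GENCODE, whose *Lif* start lies 11 bases upstream of the RefSeq start, so the last 11 bases of that window are inside the GENCODE gene.
Il6: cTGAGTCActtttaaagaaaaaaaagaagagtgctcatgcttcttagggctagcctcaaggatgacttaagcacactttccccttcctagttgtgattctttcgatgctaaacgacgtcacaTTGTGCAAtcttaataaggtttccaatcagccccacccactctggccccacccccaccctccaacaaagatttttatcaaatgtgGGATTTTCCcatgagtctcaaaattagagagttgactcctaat
Lif: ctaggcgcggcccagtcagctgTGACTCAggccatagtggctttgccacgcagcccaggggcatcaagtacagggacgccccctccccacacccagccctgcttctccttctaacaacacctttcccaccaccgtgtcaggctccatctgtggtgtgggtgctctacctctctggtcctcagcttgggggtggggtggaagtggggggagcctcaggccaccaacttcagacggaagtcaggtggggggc
The *Il6* sequence holds an NF-κB match at −43 to −35 relative to the start base, a C/EBP match at −128 to −121 and an AP-1 match at −249 to −243. The *Lif* sequence holds an AP-1 match at −228 to −222. Windows of 300 bases, reaching 50 bases past the start, were available for 5 of the 7 genes. The RefSeq start of *Osmr* lies 656 bases inside the GENCODE gene, and those of *Il6*, *Il6ra* and *Il6st* are the same in both. The *Osmr* window holds an AP-1 match 3 to 9 bases after the start base, and those of *Il6ra* and *Il6st* hold none of these 3 motifs. None of the 5 windows holds a CRE (TGACGTCA) or a STAT motif (TTCNNNGAA). Among all 32544 windows, 1.26% hold the NF-κB motif, 10.8% C/EBP, 7.79% AP-1, 1.80% CRE and 8.33% STAT. A match describes letters and not a bound site.

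*Il6* was close to silent in PBS and frHMGB1 and became, per kb of exon, the most abundant of the 7 transcripts after dsHMGB1, LPS and LPS/IFNγ. The normalized counts were 1.29, 0 and 9.39 in PBS and 2.14, 1.02 and 0 in frHMGB1, which rest on 10 and 3 counts in all. They were 6009, 4274 and 3721 in dsHMGB1, 53199, 50308 and 49119 in LPS and 23027, 22893 and 23114 in LPS/IFNγ. No library of these 3 stimulations overlapped PBS, and the stimulations did not overlap each other. Of the 10 counts in PBS, 8 came from PBS replicate 3.

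The log2 fold change of *Il6* against PBS was 10.82 (SE 0.50, adjusted p = 1.44e-09, edgeR) after dsHMGB1, 14.26 (SE 0.50, adjusted p = 1.03e-10) after LPS and 13.12 (SE 0.50, adjusted p = 1.74e-10) after LPS/IFNγ. Since the PBS level rests on few counts, the fold is also given as a ratio with its 95% counting interval, which leaves out the spread between libraries. That ratio was 1843 (1002 to 3844) for dsHMGB1, 20312 (11044 to 42358) for LPS and 9170.1 (4986 to 19124) for LPS/IFNγ. The log2 fold changes without PBS replicate 3 were 12.83, 16.27 and 15.13, each a larger fold than the upper end of its counting interval. Between frHMGB1 and PBS the difference was −1.29 (SE 0.97, adjusted p = 0.656). It was 0.73 without PBS replicate 3 (adjusted p = 0.861, edgeR), so no difference was detectable at this depth. Against frHMGB1, dsHMGB1 gave a ratio of 4380.0 (1499 to 21241).

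**Figure D3:**
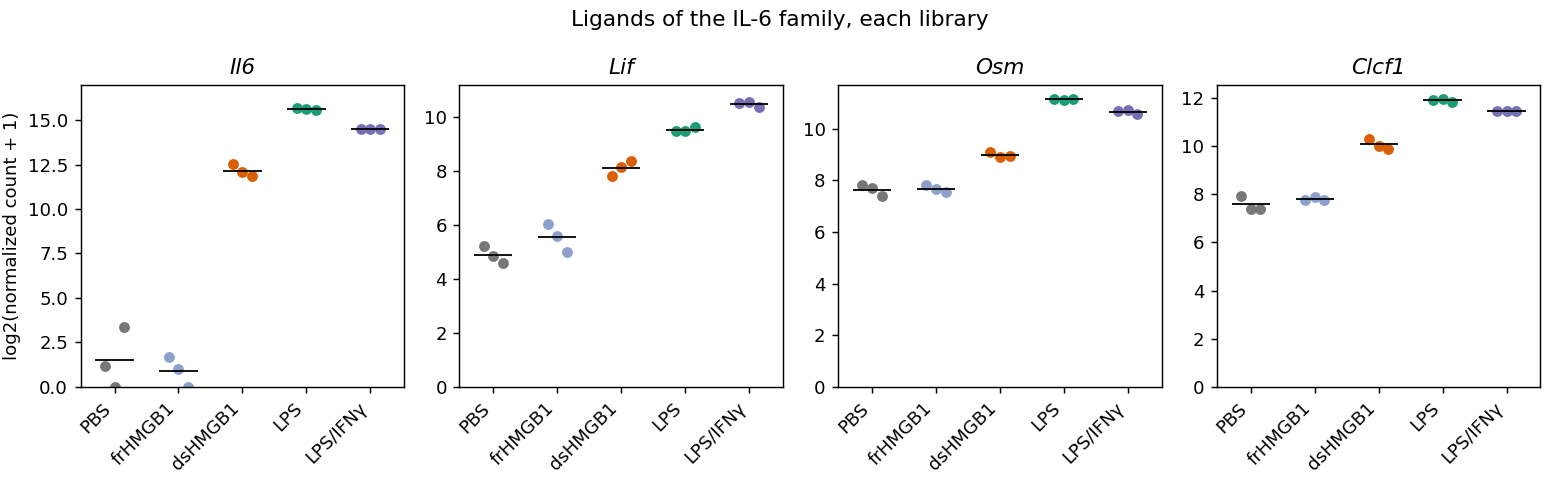
Log2(normalized count + 1) of the 4 ligands in each of the 15 libraries (points, replicates 1 to 3 from left to right) with the mean of each condition (line). In each panel the dsHMGB1, LPS and LPS/IFNγ points lie above all PBS and frHMGB1 points, and LPS/IFNγ is the highest condition for *Lif* and LPS for *Il6*, *Osm* and *Clcf1*.

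*Lif*, which encodes leukaemia inhibitory factor, lies at chr11:4257557-4272514 on the plus strand (ENSMUSG00000034394). Its normalized counts were 36.9, 27.8 and 23.5 in PBS, 64.2, 48.0 and 31.3 in frHMGB1 and 225, 283 and 332 in dsHMGB1. In LPS they were 721, 717 and 804, and in LPS/IFNγ 1503, 1532 and 1352. The levels rose in the order PBS, dsHMGB1, LPS and LPS/IFNγ without overlap, whereas frHMGB1 overlapped PBS. *Lif* was the only ligand whose level was highest after LPS/IFNγ.

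Against PBS, *Lif* rose 9.36-fold after dsHMGB1 (log2 fold change 3.23, SE 0.24, adjusted p = 1.29e-07, edgeR). It rose 25.0-fold after LPS (4.64, SE 0.24, adjusted p = 3.04e-09) and 48.9-fold after LPS/IFNγ (5.61, SE 0.23, adjusted p = 5.41e-10). For frHMGB1 the log2 fold change was 0.68 (SE 0.26, adjusted p = 0.156), and it passed only when frHMGB1 replicate 3 was left out (0.91, adjusted p = 0.0429).

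*Osm*, which encodes oncostatin M, lies at chr11:4236420-4241026 (ENSMUSG00000058755), on the same strand as *Lif* and 16.5 kb upstream of it. Its normalized counts were 224, 206 and 169 in PBS, 224, 202 and 187 in frHMGB1 and 548, 474 and 488 in dsHMGB1. They were 2296, 2231 and 2298 in LPS and 1645, 1712 and 1513 in LPS/IFNγ. PBS and frHMGB1 overlapped, and the other conditions were apart from them and from each other. The fold over PBS was 2.49 after dsHMGB1 (log2 fold change 1.32, SE 0.12, adjusted p = 2.00e-06, edgeR), 11.3 after LPS (3.50, SE 0.12, adjusted p = 1.25e-10) and 8.05 after LPS/IFNγ (3.01, SE 0.12, adjusted p = 4.08e-10). With frHMGB1 the log2 fold change was 0.02 (95% interval −0.24 to 0.28, adjusted p = 0.914).

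The neighbours *Osm* and *Lif* did not rise in the same proportion. Per kb of exon, *Osm* stood at 87.9 ± 12.3 normalized counts and *Lif* at 6.75 ± 1.57 in PBS (SD, n = 3), a ratio of 13.0. The ratio of *Osm* to *Lif* was 8.17 with frHMGB1, 3.44 with dsHMGB1, 5.83 with LPS and 2.13 with LPS/IFNγ. The long non-coding gene *Gm11959* just downstream of *Lif* had 0 counts in all libraries.

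*Clcf1* encodes cardiotrophin-like cytokine, a ligand that acts through the ciliary neurotrophic factor receptor, and lies at chr19:4214238-4223490 on the plus strand (ENSMUSG00000040663). Its normalized counts were 242, 167 and 168 in PBS, 214, 234 and 215 in frHMGB1 and 1266, 1039 and 952 in dsHMGB1. They were 3820.0, 3944 and 3673 in LPS and 2849, 2801 and 2769 in LPS/IFNγ. As for *Osm*, only PBS and frHMGB1 overlapped. *Clcf1* rose 5.61-fold after dsHMGB1 (log2 fold change 2.49, SE 0.16, adjusted p = 2.38e-08, edgeR), 19.7-fold after LPS (4.30, SE 0.16, adjusted p = 1.20e-10) and 14.5-fold after LPS/IFNγ (3.86, SE 0.16, adjusted p = 2.65e-10). After frHMGB1 the log2 fold change was 0.19 (95% interval −0.13 to 0.51, adjusted p = 0.559). The gene shares 311 bp of exon with the same-strand model *AC109138.7*, which had 0 counts.

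Among the receptors, *Il6ra* fell and *Osmr* rose with every inflammatory stimulus, and *Il6st* changed least. *Il6ra* encodes the chain that binds IL-6 and lies at chr3:89864059-89913196 on the minus strand (ENSMUSG00000027947). Its normalized counts were 4406, 4570.2 and 2854 in PBS, 4003, 3629 and 3867 in frHMGB1 and 432, 533 and 486 in dsHMGB1. They were 295, 241 and 256 in LPS and 210, 242 and 177 in LPS/IFNγ. PBS and frHMGB1 overlapped and were far above the rest, dsHMGB1 lay above both LPS conditions, and LPS and LPS/IFNγ overlapped.

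The level of *Il6ra* was 8.15-fold lower after dsHMGB1 than in PBS (log2 fold change −3.03, SE 0.19, adjusted p = 2.69e-08, edgeR). It was 14.9-fold lower after LPS (−3.90, SE 0.19, adjusted p = 1.76e-09) and 18.8-fold lower after LPS/IFNγ (−4.24, SE 0.19, adjusted p = 8.98e-10). PBS replicate 3, the lowest PBS library, made these values smaller, and without it they were −3.21, −4.09 and −4.43. For frHMGB1 the value was −0.04 (95% interval −0.40 to 0.32, adjusted p = 0.951). Counts per gene do not separate transcripts of the membrane and the soluble receptor.

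**Figure D4:**
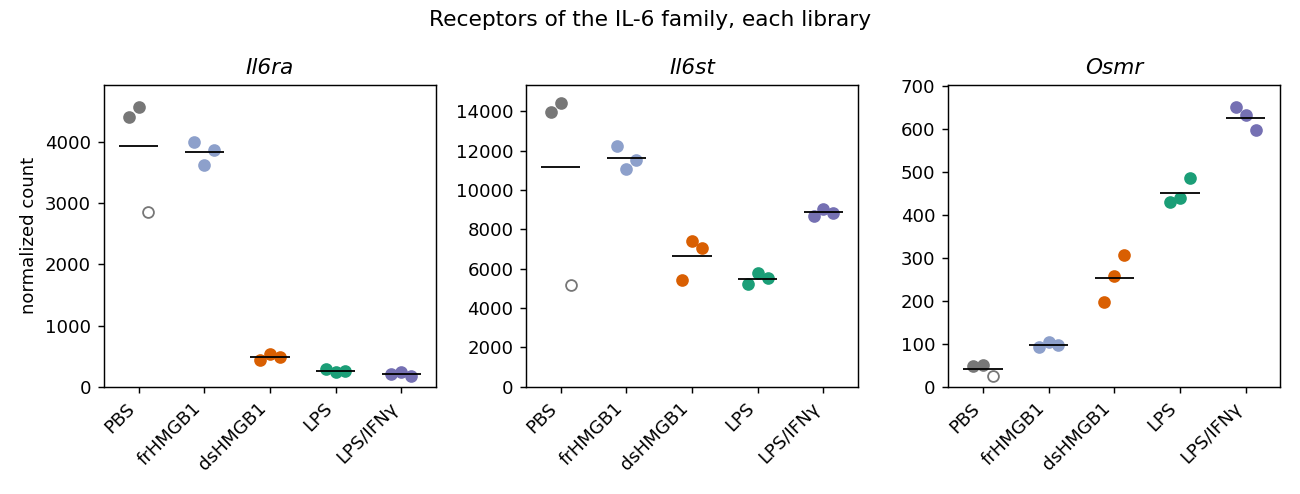
Normalized counts of the 3 receptor genes in each library (points, replicates 1 to 3 from left to right, open symbol for PBS replicate 3) with the mean of each condition (line), on linear axes from 0. *Il6ra* is low in every dsHMGB1, LPS and LPS/IFNγ library, *Osmr* climbs from PBS to LPS/IFNγ, and the *Il6st* level of PBS replicate 3 lies at 5147 beside 13962 and 14419 in the other PBS libraries.

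*Il6st*, which encodes gp130, lies at chr13:112464070-112510086 on the plus strand (ENSMUSG00000021756). Its normalized counts were 13962, 14419 and 5147 in PBS, 12222, 11038 and 11525 in frHMGB1 and 5424, 7397 and 7046 in dsHMGB1. They were 5207, 5763 and 5513 in LPS and 8694, 9021 and 8844 in LPS/IFNγ. PBS replicate 3 was the lowest of all 15 libraries, so every condition overlapped PBS, whereas PBS replicates 1 and 2 lay above all other libraries.

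With all libraries, *Il6st* was lower after LPS (log2 fold change −1.02, SE 0.29, adjusted p = 0.00498, edgeR) and after dsHMGB1 (−0.76, SE 0.29, adjusted p = 0.0405). It did not pass after LPS/IFNγ (−0.34, 95% interval −0.90 to 0.23, adjusted p = 0.270). Without PBS replicate 3 all 3 comparisons passed, at −1.38 (adjusted p = 1.49e-10), −1.10 (adjusted p = 5.82e-09) and −0.69 (adjusted p = 9.14e-07). With each pair of conditions fitted alone, the LPS call (−0.99, adjusted p = 0.0803) and the dsHMGB1 call (−0.74, adjusted p = 0.208) were lost. The dsHMGB1 call was also lost when any other library was left out, with adjusted p between 0.0548 and 0.152 over the other 14. For frHMGB1 the value was 0.05 (adjusted p = 0.953) and turned to −0.29 (adjusted p = 0.0348) without PBS replicate 3. Against frHMGB1, where no library stood apart, dsHMGB1 was lower by −0.81 (SE 0.29, adjusted p = 0.0287), and the libraries of these conditions did not overlap. The call was lost when frHMGB1 replicate 1, 2 or 3 or dsHMGB1 replicate 1 or 3 was left out (adjusted p 0.0542 to 0.104). Without PBS replicate 3 it held, at −0.81 (adjusted p = 9.14e-08, edgeR).

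*Osmr* encodes the chain that pairs with gp130 for oncostatin M and lies at chr15:6813577-6874969 on the minus strand (ENSMUSG00000022146). Its normalized counts were 48.5, 51.7 and 25.8 in PBS, 92.0, 104 and 98.1 in frHMGB1 and 197, 258 and 308 in dsHMGB1. They were 429, 439 and 487 in LPS and 651, 632 and 597 in LPS/IFNγ. The 5 conditions did not overlap and stood in the order PBS, frHMGB1, dsHMGB1, LPS and LPS/IFNγ.

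*Osmr* was the only gene of the family called after frHMGB1, 2.26-fold over PBS (log2 fold change 1.18, SE 0.23, adjusted p = 0.00612, edgeR). The call held without PBS replicate 3 (0.97, adjusted p = 0.00137) and was lost when the frHMGB1 and PBS libraries were fitted alone (1.19, adjusted p = 0.188). The fold over PBS was 5.86 after dsHMGB1 (2.55, SE 0.22, adjusted p = 1.02e-06), 10.4 after LPS (3.38, SE 0.22, adjusted p = 5.11e-08) and 14.4 after LPS/IFNγ (3.85, SE 0.22, adjusted p = 1.27e-08). These log2 values were, without PBS replicate 3, 2.34, 3.16 and 3.63.

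Compared per kb of exon, which sets levels of different genes roughly side by side, the family changed its order with stimulation. The length is that of all annotated exons of a gene merged, not of the transcripts expressed, so ranks and ratios between genes are approximate. The PBS means include PBS replicate 3. In PBS *Il6st* was highest at 1007 ± 471 normalized counts per kb (SD, n = 3), followed by *Il6ra* at 456 ± 110, *Osm* at 87.9 ± 12.3 and *Clcf1* at 50.6 ± 11.4. *Lif* stood at 6.75 ± 1.57, *Osmr* at 3.47 ± 1.17 and *Il6* at 1.47 ± 2.10, and the last 2 did not differ beyond their spread. In dsHMGB1 *Il6* was highest at 1923 ± 492, and *Il6st* followed at 597 ± 94.8, *Clcf1* at 285 ± 42.6 and *Osm* at 221 ± 17.3. In LPS *Il6* reached 20954 ± 864 and *Osm* and *Clcf1* stood at 1001 ± 16.9 and 1002 ± 35.7, neighbours that did not differ beyond their spread. In LPS/IFNγ *Il6* stood at 9477 ± 46.0 and *Il6st* at 798 ± 14.7, with *Clcf1* at 737 ± 10.6 and *Osm* at 714 ± 44.6, again within their spread.

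The balance of receptor chains changed with them. The level of *Il6st* per kb was 2.21 times that of *Il6ra* in PBS and 2.36 times in frHMGB1, and 10.7, 16.2 and 32.9 times in dsHMGB1, LPS and LPS/IFNγ. The level of *Il6st* per kb was 290 times that of *Osmr* in PBS, 129 times with frHMGB1, 28.4 times with dsHMGB1, 13.3 times with LPS and 15.4 times with LPS/IFNγ. At the transcript level the α-chain for IL-6 was therefore scarcest in the conditions in which *Il6* itself was high. By this measure per kb of merged exon, *Il6st* exceeded both other chains in all 5 conditions.

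**Figure D5:**
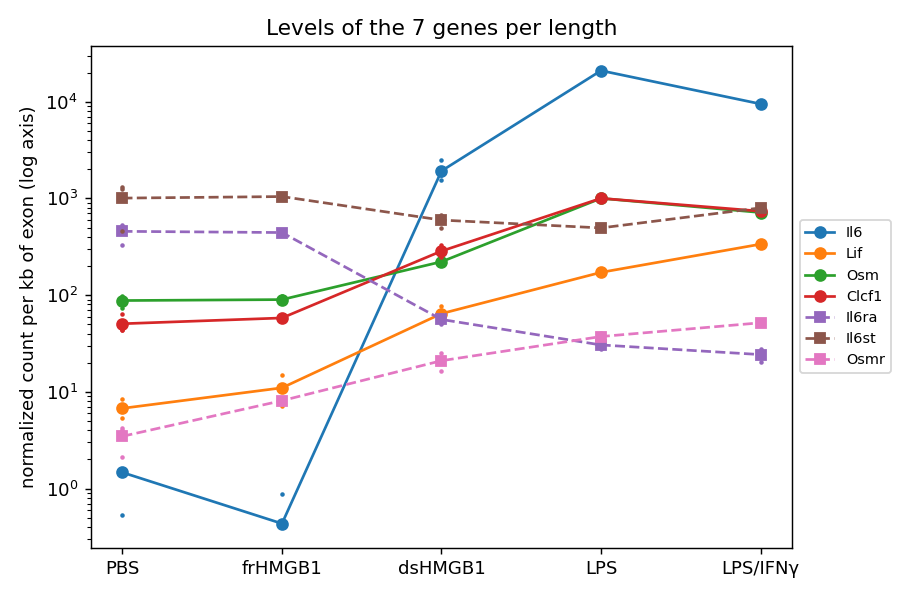
Mean normalized count per kb of exon (log axis) of the 7 genes in the 5 conditions, with circles and solid lines for ligands, squares and dashed lines for receptors, and small points for single libraries (libraries at 0 are not drawn). Lines only join values of the same gene, and *Il6* passes from the lowest mean in PBS, at 1.47 and within the spread of *Osmr*, to the highest in dsHMGB1, LPS and LPS/IFNγ.

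The HMGB1 preparations were compared directly with each other. They differed in redox form, in source and, by the paper's methods, in the use of DTT in the buffers. These cannot be told apart here. In dsHMGB1 against frHMGB1, 5 genes were higher and 2 lower, against 27.7% and 23.1% of all tested genes. The log2 fold change was 12.11 (SE 0.86, adjusted p = 1.72e-09, edgeR) for *Il6*, 2.55 (SE 0.23, adjusted p = 1.17e-06) for *Lif* and 2.30 (SE 0.16, adjusted p = 5.90e-08) for *Clcf1*. It was 1.30 (SE 0.13, adjusted p = 2.83e-06) for *Osm* and 1.37 (SE 0.21, adjusted p = 2.36e-04) for *Osmr*. *Il6ra* was lower by −2.99 (SE 0.19, adjusted p = 3.24e-08). This comparison uses no PBS library for its means.

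Against LPS, dsHMGB1 gave the weaker change of every gene that passed. All 4 ligands and *Osmr* were lower in dsHMGB1 and *Il6ra* was higher, so 1 gene was higher and 5 were lower, where 15.8% of all tested genes were higher and 10.6% lower. *Il6* was 10.9-fold lower (log2 fold change −3.45, SE 0.21, adjusted p = 8.42e-06, edgeR), *Osm* 4.53-fold lower (−2.18, SE 0.11, adjusted p = 1.46e-07) and *Clcf1* 3.51-fold lower (−1.81, SE 0.15, adjusted p = 3.07e-06). *Lif* was 2.67-fold lower (−1.42, SE 0.20, adjusted p = 3.97e-04). *Il6ra* was 1.83-fold higher (0.87, SE 0.20, adjusted p = 0.00271). *Osmr* was 1.78-fold lower (−0.83, SE 0.19, adjusted p = 0.0173), and this call was lost without dsHMGB1 replicate 1 or 2 or LPS replicate 3 (adjusted p 0.0509 to 0.0661). The *Osmr* call held without PBS replicate 3 (−0.82, adjusted p = 6.30e-05, edgeR). For *Il6st* the difference was 0.27 (95% interval −0.30 to 0.84, adjusted p = 0.474), and it passed without PBS replicate 3 (0.28, adjusted p = 0.00775).

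Against LPS/IFNγ the same 5 genes were lower in dsHMGB1 and *Il6ra* was higher, where 16.5% of all tested genes were higher and 16.7% lower. *Lif* was 5.22-fold lower (log2 fold change −2.38, SE 0.20, adjusted p = 2.26e-06, edgeR) and *Il6* 4.93-fold lower (−2.30, SE 0.21, adjusted p = 8.50e-05). *Osm* was 3.23-fold lower (−1.69, SE 0.11, adjusted p = 4.02e-07), *Clcf1* 2.59-fold lower (−1.37, SE 0.15, adjusted p = 1.25e-05) and *Osmr* 2.46-fold lower (−1.30, SE 0.19, adjusted p = 4.41e-04). *Il6ra* was 2.31-fold higher (1.21, SE 0.20, adjusted p = 2.35e-04). *Il6st* differed by −0.42 (95% interval −0.98 to 0.15, adjusted p = 0.334), and it passed without PBS replicate 3 (−0.41, adjusted p = 8.54e-04).

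Both LPS conditions raised all 4 ligands over PBS, and the difference between them was not of the same sign for each ligand. *Lif* was 1.96-fold higher in LPS/IFNγ (log2 fold change 0.97, SE 0.19, adjusted p = 0.00306, edgeR), whereas *Il6* was 2.21-fold lower (−1.14, SE 0.21, adjusted p = 0.0165) and *Osm* 1.40-fold lower (−0.49, SE 0.11, adjusted p = 0.0176). Thus 1 gene was higher and 2 were lower, against 16.3% and 9.36% of all tested genes. The *Il6* call was lost by a narrow margin when any LPS/IFNγ library was left out (adjusted p 0.0512 to 0.0517), and the *Osm* call without LPS/IFNγ replicate 3 (adjusted p = 0.0503), while the libraries of both conditions did not overlap for either gene. *Clcf1* was at −0.44 (SE 0.15, adjusted p = 0.0628), and DESeq2 called it (adjusted p = 0.0134). *Il6st* was at 0.69 (SE 0.29, adjusted p = 0.0877), *Osmr* at 0.47 (SE 0.19, adjusted p = 0.104) and *Il6ra* at −0.33 (SE 0.20, adjusted p = 0.308). Without PBS replicate 3 all 7 genes passed, with adjusted p = 0.00104 for *Clcf1*, 3.21e-06 for *Il6st*, 0.00605 for *Osmr* and 0.0221 for *Il6ra*. In that fit 3 were higher and 4 lower, against 25.1% and 24.3% of all tested genes. The log2 values of these genes moved little, since that library enters this comparison through the shared estimate of the spread.

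Of 8 further ligand genes of the wider family, 5 were tested. With all libraries 2 were higher after dsHMGB1, 2 after LPS and 3 after LPS/IFNγ, where 23.3%, 26.7% and 29% of all tested genes were higher, and 0 were lower. Without PBS replicate 3 the counts were 3, 4 and 4, against 29.8%, 32.9% and 33.3%. *Il27* and *Ebi3*, which encode the subunits of IL-27, a cytokine that also uses gp130, rose after dsHMGB1, LPS and LPS/IFNγ. *Il27* had a mean of 20.9 ± 12.4 normalized counts in PBS, 13712 ± 2187 after dsHMGB1, 93677 ± 3152 after LPS and 99933 ± 3517 after LPS/IFNγ (SD, n = 3). *Ebi3* stood at 931 ± 200, 5003 ± 264, 9303 ± 312 and 4241 ± 300 in the same order. *Ctf2* was not called in any comparison with all libraries and was low, at 9.93 ± 11.9 in PBS. It was higher without PBS replicate 3 after dsHMGB1 (log2 fold change 2.00, adjusted p = 0.0277, edgeR), LPS (3.01, adjusted p = 0.00140) and LPS/IFNγ (1.87, adjusted p = 0.0388). *Ctf1* was the other gene called, in LPS/IFNγ against PBS (log2 fold change 1.57, adjusted p = 0.0437, edgeR), at 4.67 ± 3.00 and 13.3 ± 6.87 normalized counts, and it is named here after its values were seen. The genes for IL-11, ciliary neurotrophic factor and IL-31 were too low to be tested.

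Among 7 further receptor and sheddase genes, 5 were tested, with 2 higher and 1 lower after dsHMGB1, 1 higher and 1 lower after LPS and 2 higher and 1 lower after LPS/IFNγ. Of all tested genes 23.3%, 26.7% and 29% were higher and 24.2%, 36.2% and 31.2% lower, so with all libraries these counts were near the background. Without PBS replicate 3 the counts were 1 higher and 3 lower, 1 higher and 2 lower, and 2 higher and 3 lower. The shares of all tested genes were then 29.8% and 29%, 32.9% and 38.3%, and 33.3% and 34.4%. For frHMGB1 2 were higher and 0 lower in that fit, against 8.41% and 9.09% of all tested genes. With all libraries 0 and 0 were called for frHMGB1, against 1.31% and 5.69%. *Adam17*, which encodes a protease that sheds the IL-6 receptor from the membrane, rose in all 3, from 12400.3 ± 2269.7 normalized counts in PBS to 40766 ± 3872 after dsHMGB1, 31838 ± 582 after LPS and 20706 ± 123 after LPS/IFNγ (SD, n = 3). It was higher in dsHMGB1 than in LPS (log2 fold change 0.36, adjusted p = 0.0364, edgeR) and than in LPS/IFNγ (0.98, adjusted p = 6.64e-05). *Adam10*, which encodes a related sheddase, was not called in any comparison with all libraries, whereas without PBS replicate 3 it was lower after dsHMGB1 (−0.23, adjusted p = 0.0409), LPS (−0.52, adjusted p = 8.97e-05) and LPS/IFNγ (−0.31, adjusted p = 0.00440). In that fit *Adam10* was also higher in dsHMGB1 than in LPS (0.29, adjusted p = 0.0104, edgeR). *Il11ra1* was called lower in all 3 stimulations (log2 fold change −1.38, −1.28 and −1.26), and its PBS libraries spread widely (11315 ± 8628). Its values were −0.55, −0.45 and −0.43 without PBS replicate 3, and the gene has near-identical copies in the mouse genome, so its counts are uncertain. *Il27ra* was called after dsHMGB1 (0.35, adjusted p = 0.0395), and not without PBS replicate 3 (0.26, adjusted p = 0.0530). *Lifr*, named after its values were seen since it is the partner chain for LIF, rose in LPS/IFNγ to 244 ± 25.8 normalized counts from 80.4 ± 24.0 in PBS, beside 63.7 ± 8.56 in dsHMGB1 and 70.9 ± 6.68 in LPS. It was higher in LPS/IFNγ than in LPS (log2 fold change 1.78, adjusted p = 9.88e-05), as was its ligand gene *Lif*. Without PBS replicate 3, *Lifr* was called lower than in PBS after dsHMGB1 (−0.51, adjusted p = 0.0425, edgeR). The gene for the ciliary neurotrophic factor receptor, on which the *Clcf1* product acts, was too low to be tested.

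All 7 kinase and STAT genes were higher than in PBS after dsHMGB1, LPS and LPS/IFNγ, with medians of the log2 fold change of 1.67, 2.44 and 3.11, where 23.3%, 26.7% and 29% of all tested genes were higher. *Jak2* rose from 2074 ± 555 normalized counts in PBS to 33942 ± 4204 after dsHMGB1, 65470.3 ± 812 after LPS and 68388 ± 854 after LPS/IFNγ. *Jak1* rose from 10856 ± 5089.6 to 27248 ± 2923, 44262 ± 1643 and 53362 ± 1021. *Stat3*, the main signal transducer of gp130, rose from 5966 ± 1317 to 15955 ± 705, 32358 ± 1762 and 51433 ± 1127, and *Stat5a* from 1201 ± 246 to 8619 ± 257, 39943 ± 2297 and 42128 ± 1101. *Stat3* was higher in LPS/IFNγ than in LPS (log2 fold change 0.67, adjusted p = 0.00295, edgeR). After frHMGB1 no gene of this list was called, and these counts were the same without PBS replicate 3.

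Of 7 inhibitors and phosphatases, 6 rose after each of dsHMGB1, LPS and LPS/IFNγ, against the same 23.3%, 26.7% and 29% of all tested genes. *Socs3*, the feedback inhibitor that binds gp130, had a mean of 79.0 ± 12.8 normalized counts in PBS and 25853 ± 2367 after dsHMGB1, 104801 ± 4829.8 after LPS and 88378 ± 1018 after LPS/IFNγ. *Socs3* was also called after frHMGB1 (175 ± 60.8, log2 fold change 1.14, adjusted p = 0.00437, edgeR), as was *Ptpn6* (0.29, adjusted p = 0.0480). *Socs1* rose from 59.3 ± 14.4 to 7693 ± 1441, 11849 ± 356 and 20727 ± 702, and *Ptpn11* from 4612 ± 1769 to 9492 ± 628, 12459.6 ± 722 and 11873 ± 81.3. The exception was *Pias3*, called lower after dsHMGB1 (−0.61, adjusted p = 0.0247) and LPS/IFNγ (−0.90, adjusted p = 0.00169) and named after its values were seen. It was also lower after LPS without PBS replicate 3 (−0.69, adjusted p = 3.75e-07). *Socs3* was lower in dsHMGB1 than in LPS (−2.02, adjusted p = 1.27e-05) and did not pass between LPS/IFNγ and LPS (−0.25, adjusted p = 0.495).

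Among 13 known STAT3 target genes, all tested, 12 were higher and 1 lower after dsHMGB1, 12 higher and 1 lower after LPS, and 11 higher and 1 lower after LPS/IFNγ. The shares of all tested genes were 23.3% and 24.2%, 26.7% and 36.2%, and 29% and 31.2%. Several of these genes also respond to other factors. *Il1rn*, which encodes the IL-1 receptor antagonist, rose from 944 ± 141 normalized counts in PBS to 16164 ± 2215 with dsHMGB1, 79960.3 ± 3302 with LPS and 258033 ± 6039.9 with LPS/IFNγ. The kinase gene *Pim1* rose from 3032 ± 254 to 37706 ± 4110.3, 77434 ± 3527 and 67581 ± 1951, and *Junb* from 12302 ± 4567 to 33048 ± 5134, 74161 ± 2006 and 40768 ± 1177. The survival gene *Mcl1* rose little (log2 fold change 0.33, 0.46 and 0.44). *Fos* was the gene called lower each time (−1.03, −1.37 and −2.37) and is named after its values were seen. *Bcl3* was the single gene of this list called after frHMGB1 (0.43, adjusted p = 0.0145, edgeR), where 1.31% of all tested genes were higher. Without PBS replicate 3 the counts for dsHMGB1, LPS and LPS/IFNγ were the same, and those for frHMGB1 were 5 higher and 1 lower, against 8.41% and 9.09% of all tested genes in that fit.

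Of 9 genes for regulators of *Il6* transcription and of its mRNA, 7 rose after dsHMGB1, 9 after LPS and 8 after LPS/IFNγ, and none was called lower in these. Of all tested genes 23.3%, 26.7% and 29% were higher. Without PBS replicate 3 the counts were 8, 9 and 9 higher, against 29.8%, 32.9% and 33.3%. For frHMGB1 they were 3 higher and 0 lower with all libraries and 4 higher and 2 lower without PBS replicate 3, against 1.31% and 5.69% of all tested genes in the first fit and 8.41% and 9.09% in the other. *Nfkbiz*, whose product IκBζ is needed for *Il6* transcription after LPS, rose from 327 ± 125 normalized counts in PBS to 21856 ± 1694 after dsHMGB1, 55953 ± 3508 after LPS and 32814 ± 1101 after LPS/IFNγ. Its means thus stood in the same order as those of *Il6*, and the difference between dsHMGB1 and LPS/IFNγ (log2 fold change −0.59) did not pass in edgeR with all libraries (adjusted p = 0.0643), passed with DESeq2 (adjusted p = 0.0228) and passed without PBS replicate 3 (−0.58, adjusted p = 6.13e-07, edgeR). After frHMGB1, *Nfkbiz* stood at 843 ± 23.0 and was called (log2 fold change 1.36, adjusted p = 0.00198, edgeR), while *Il6* stood at 1.05 ± 1.07. *Rela*, an NF-κB subunit, rose from 6015 ± 335 to 22898 ± 1188, 32420.3 ± 820 and 28441 ± 272. *Zfp36*, whose product destabilises mRNAs with AU-rich elements, rose from 5780.3 ± 433 to 21634 ± 1413, 46272 ± 512 and 14088 ± 201. *Atf3*, at 42164 ± 2973 in PBS, was not called after dsHMGB1 (43021 ± 2452) and rose after LPS (62945 ± 634) and LPS/IFNγ (53038 ± 1196).

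The core pentamer of AU-rich elements, ATTTA in DNA letters, was counted in the 3′ UTR of the transcript with the longest coding sequence (GENCODE M21). *Il6* held 6 in 427 bases, or 14.1 per kb, a density at the 99.6th percentile of 12942 tested protein-coding genes, of which 65.7% held at least 1. *Osm* held 5.90 per kb and *Clcf1* 4.34 per kb, at percentiles 95.4 and 90.6, and *Lif* held 2.20 per kb, at percentile 69.1. Among the receptors, *Osmr* held 2.23, *Il6st* 1.60 and *Il6ra* 0.544 per kb. The longer form TTATTTATT gave another order. *Lif* and *Clcf1* held 2 each, and *Il6*, *Osm* and the receptors held 0, where 7.15% of these genes held at least 1. A stretch of the *Il6* 3′ UTR, at chr5:30019677-30019706 on the plus strand (GRCm38), is shown for its 2 pentamers, in capitals.
Il6: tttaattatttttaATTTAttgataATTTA
These counts were chosen with the levels known and describe sequence only.

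The genes whose levels over the 15 libraries were most like each member were listed by Pearson's r of log2(normalized count + 1) among the 10912 genes whose mean normalized count reached 100. The points share their conditions, so the values are descriptions. For *Il6* they were *Isg15* (0.998), *Ppp1r15a* (0.997) and *Il15* (0.997), and for *Clcf1* they were *Il1bos* (0.997), *Noct* (0.996) and *Gabpb1* (0.996). *Lif* was closest to *Pfkp*, *Pak4* and *Rnf19b* (0.992 each), and *Osm* to *Ifnar2* (0.994), *Rabgef1* (0.992) and *Ggnbp2* (0.991). *Osmr* was closest to *Serpinb2* (0.990), *Lilr4b* (0.989) and *Actg1* (0.988). *Il6ra* was closest to *Slc26a11* (0.997), *Hpgds* (0.997) and *Ttyh2* (0.996). *Il6st* had the lowest top values, with *Numa1* (0.982), *Peak1* (0.978) and *Atf7ip* (0.976). Within the family, *Osm* and *Clcf1* were most alike (0.982), and *Lif* was closer to *Osmr* (0.971) than to *Osm* (0.947).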

How the data were processed

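RNA was sequenced from 15 samples of BMDMs, with 3 in each of the 5 conditions, grouped by the submitters' labels. The authors deposited a table of raw counts per Ensembl gene. The submitters' processing notes name CASAVA, STAR, DESeq2 and GRCm38. Of 51763 identifiers, 51661 matched GENCODE M21, which gave symbols, positions and exon lengths, and 102 did not. The table had 0 columns without a sample. Genes with low counts were removed with edgeR's filterByExpr, which kept 16919. One model over all 15 libraries was fitted with edgeR 4.0.16 (TMM factors, quasi-likelihood F test, Benjamini-Hochberg adjustment over all tested genes), and genes with an adjusted p under 0.05 were called. Log2 fold changes with their standard errors and 95% intervals, and normalized counts, came from DESeq2 1.42.0 (R 4.3.3), without shrinkage. Counting intervals for *Il6* ratios cover counting error only. The fit was tested on simulated data with known changes.

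The genes of the family and the gene lists were chosen with earlier results of these data known. Every member was described. Of each further list, the 4 genes with the highest mean normalized count were eligible to be named, and for each member the 3 genes with the highest correlation, with other genes marked as named after their values were seen. One eligible gene is not reported here. Alternatives were DESeq2's test, RLE normalization, other filters on low counts, protein-coding genes alone, a replicate block, separate fits of each pair of conditions and the removal of single libraries. The counts of the further lists without PBS replicate 3 were added after seeing the data. Replicates of a condition were compared, and none agreed within sampling noise (χ² per degree of freedom 4.17 to 787). Totals of 40934540 to 80925478 counts per library set the precision. Promoter windows came from RefSeq, with none here for *Osm* and *Clcf1*.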

Additional observations from a re-analysis of the deposited data

How the results depend on the processing

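Of the log2 fold changes of the 7 genes under all alternatives, 1236 kept their side of the threshold. Among these, some that passed in neither fit changed sign. Examples are *Il6* (−1.29 to 0.73) and *Osm* (0.02 to −0.07) in frHMGB1 against PBS without PBS replicate 3. Another 32 kept their direction and no longer passed, and 18 kept it and newly passed. The 1 that reversed with a call was *Il6st* in frHMGB1 against PBS without PBS replicate 3 (range over single libraries left out −0.29 to 0.29). With each pair of conditions fitted alone, the *Il6st* calls of LPS and dsHMGB1 against PBS were lost (adjusted p = 0.0803 and 0.208, edgeR), 0 genes of the family were called for frHMGB1 against PBS and 7 for LPS/IFNγ against LPS, and the counts over all genes were 189 for frHMGB1 against PBS, 4747 for dsHMGB1 against PBS, 6985 for dsHMGB1 against LPS, 8580 for dsHMGB1 against LPS/IFNγ and 8999 for LPS/IFNγ against LPS. The frHMGB1 count over all genes, 1185 as reported, was 716 with a filter of 1 CPM in 3 libraries and 70 with protein-coding genes alone. Leaving out 1 library at a time gave 839 to 3035 genes for frHMGB1 against PBS, 3410 to 8465 for dsHMGB1 against LPS, 4552 to 9238 for dsHMGB1 against LPS/IFNγ and 3349 to 8566 for LPS/IFNγ against LPS, each highest without PBS replicate 3, and 1 to 2 and 1 to 7 genes of the family for the first and the last. The cause was not tested.

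Replicate numbers did not pair the samples: of 30 pairs of libraries with the same number, 1 had a correlation of deviations over 0.1 (range −0.39 to 0.38). With a replicate block, 6 of 7 genes were called for dsHMGB1 against PBS, *Il6st* being lost (−0.71, adjusted p = 0.0655, edgeR), and no other call of the family changed. With no filter on low counts the *Il6st* calls of dsHMGB1 against PBS and frHMGB1 were lost (adjusted p = 0.0571 and 0.0582). Depth limits *Il6* in PBS and frHMGB1, with 10 and 3 counts in all.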
